A study of Mus musculus with 8 samples.

Results

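The genes described here encode the proton pump, membrane proteins and digestive enzymes of the lysosome, together with Tfeb, the transcription factor that controls many of them. They were taken from a list of 43 symbols, and all 43 were found among the 21883 protein-coding genes of the GRCm38 RefSeq annotation on chromosomes 1 to 19, X and Y. The mark is H4K12la, the addition of a lactyl group to lysine 12 of histone H4. It was mapped by CUT&Tag, where a transposase brought in by the antibody cuts out and tags nearby DNA for sequencing. Dissociated brain without cerebellum, from WT or 5XFAD mice, gave a total cell preparation after myelin removal and a microglia preparation bound to CD11b beads, with 2 libraries for each genotype and preparation. CD11b is also carried by other myeloid cells. 5XFAD mice carry mutant human transgenes that cause amyloid deposits, driven by a Thy1 promoter, mainly in neurons, so the microglia themselves are not the main site of transgene expression. The labels state neither the age of the mice nor whether libraries came from separate animals, and spread between libraries may therefore be technical.

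The lysosome is an acidic organelle in which enzymes digest material brought in by endocytosis, phagocytosis and autophagy. The vacuolar ATPase keeps it acidic: a cytosolic V1 sector splits ATP and a membrane V0 sector carries protons across. Microglia, the resident macrophages of the brain, rely on it to degrade what they engulf, and inherited loss of many of these enzymes causes lysosomal storage disease with damage to the nervous system. TFEB and related factors are known to bind a motif built on the E-box CACGTG in the promoters of lysosomal genes.

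RefSeq promoters of build GRCm38.p6 were matched for 37 of the 43 genes. The 250 bases before the outermost start in the promoter table are shown for 6 of them because they show the contrasting patterns of the mark: Cd68 and Gla were covered at the start in microglia only, Psap in total cells only, Lipa in every library, and Lamp1 and Atp6v0b in none. Capitals mark CACGTG, which reads the same on both strands.
Cd68 (chr11:69666171-69666420, minus strand): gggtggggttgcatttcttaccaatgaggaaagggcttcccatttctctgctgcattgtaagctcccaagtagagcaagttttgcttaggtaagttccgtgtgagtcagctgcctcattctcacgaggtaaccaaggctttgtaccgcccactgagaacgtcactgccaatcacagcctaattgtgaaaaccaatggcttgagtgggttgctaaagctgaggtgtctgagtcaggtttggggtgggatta
Gla (chrX:134601006-134601255, minus strand): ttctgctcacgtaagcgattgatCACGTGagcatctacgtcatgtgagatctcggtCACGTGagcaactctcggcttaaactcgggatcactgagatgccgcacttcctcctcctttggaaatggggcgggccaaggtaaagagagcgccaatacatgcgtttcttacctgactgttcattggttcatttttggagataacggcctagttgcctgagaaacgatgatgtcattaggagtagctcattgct
Psap (chr10:60277378-60277627, plus strand): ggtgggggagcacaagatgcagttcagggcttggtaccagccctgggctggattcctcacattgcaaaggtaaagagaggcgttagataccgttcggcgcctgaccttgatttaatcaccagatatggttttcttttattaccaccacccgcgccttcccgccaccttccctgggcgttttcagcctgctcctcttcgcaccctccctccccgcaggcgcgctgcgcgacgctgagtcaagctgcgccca
Lipa (chr19:34527475-34527724, minus strand): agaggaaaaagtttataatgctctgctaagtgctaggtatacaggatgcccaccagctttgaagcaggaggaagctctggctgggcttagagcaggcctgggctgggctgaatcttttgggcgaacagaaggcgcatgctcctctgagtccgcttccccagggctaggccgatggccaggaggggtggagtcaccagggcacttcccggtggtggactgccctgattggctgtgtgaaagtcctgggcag
Lamp1 (chr8:13158911-13159160, plus strand): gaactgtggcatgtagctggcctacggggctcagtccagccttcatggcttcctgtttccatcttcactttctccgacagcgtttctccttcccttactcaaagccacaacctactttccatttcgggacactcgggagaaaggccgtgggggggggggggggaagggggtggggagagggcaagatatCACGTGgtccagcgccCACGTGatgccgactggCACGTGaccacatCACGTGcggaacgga
Atp6v0b (chr4:117887330-117887579, minus strand): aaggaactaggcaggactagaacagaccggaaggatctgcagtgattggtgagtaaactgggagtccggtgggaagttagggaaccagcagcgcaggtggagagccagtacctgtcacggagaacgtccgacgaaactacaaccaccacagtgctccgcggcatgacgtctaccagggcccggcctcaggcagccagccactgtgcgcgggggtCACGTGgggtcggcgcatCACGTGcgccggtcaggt

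Counting the 300 bases from 250 before to 50 after each start, 13 of 45 promoters of lysosomal genes held CACGTG (28.9%), against 7.84% of 21262 promoters of all protein-coding genes. By gene it was found in 13 of 37 (35.1%) against 8.91% of 17491. The longer forms TCACGTG or CACGTGA, which contain CACGTG, were present at the same 13 lysosomal genes (35.1%) and at 5.00% of all genes. Lamp1 held 4 copies, which began 61, 45, 28 and 15 bases before its start, and Atp6v0b, Gla, Cln3 and Mcoln1 held 2 each. Those of Cln3 lie before an inner start, whose base was covered in no library. The promoter at its outermost start, which microglial peaks covered, held no CACGTG. Start-site peaks, those within 2 kb of any annotated start, were counted separately for genes with and without the motif. Of the genes measured, 4 of the 13 lysosomal genes with CACGTG (Arsa, Atp6v0e, Glb1 and Sgsh) had one in all 8 libraries, and 15 of the 24 without it did. Over all genes the same shares were 20.5% with and 16.7% without the motif. No start-site peak in any library was listed at 26.0% of all genes with the motif and 45.1% without it. Among lysosomal genes this held for 1 of the 13 with it and 1 of the 24 without it. A match of letters is a description of the sequence and not a site of binding.

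The lists held 22284 to 41765 peaks on these chromosomes and their summed length was 15.3 to 36.3 Mb for microglia against 7.78 to 14.8 Mb for total cells. Median peak widths were 580 to 734 bp and 287 to 366 bp. Read counts are not part of the lists, depth is therefore unknown, and the lack of a peak means only that none was listed. Of 12 microglial markers, 10 had a peak within 2 kb of either gene end throughout the microglia libraries, against 29.4% of all genes. Throughout the total cell libraries 2 did, against 22.8%. No library listed such a peak at 6 of 8 neuronal and 4 of 6 other leukocyte markers, against 41.2% of all genes. All 4 microglia libraries had it at 2 of 6 astrocyte, 2 of 6 oligodendrocyte and 1 of 5 vascular markers, against 29.4%. The myelin gene Mbp had it there but in none of the total cell libraries, against 1.5% of all genes. The neuronal gene Map2 had the reverse, against 0.649%. The share of cells that carry the mark and the amount of mark per cell cannot be told apart in such pooled material. List length and cell composition moved with the preparation throughout, and their part in the results was not tested.

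Most lysosomal genes carried the mark in both preparations. A gene-end peak, one that overlaps the 2 kb on either side of an annotated end of the gene, was listed at 34, 39, 37 and 40 of the 43 genes in microglia of WT 1, WT 2, 5XFAD 1 and 5XFAD 2. In total cells of the same order the counts were 35, 30, 36 and 33. All 8 libraries stood at 69.8% to 93.0% of these genes, whereas the share of all protein-coding genes ran from 33.3% to 49.0%. The excess over all genes was 45.5 ± 1.32 points for microglia and 41.1 ± 3.96 for total cells (in percent of genes, SD, n = 4 libraries each), and the ranges of 44.0 to 47.2 and 35.5 to 44.9 overlapped. For peaks anywhere inside the gene the excess was 45.5 ± 3.34 in microglia and 31.9 ± 2.76 in total cells (SD, n = 4 each), and there the ranges of 41.7 to 48.4 and 29.4 to 34.6 did not overlap. The median length was 23.1 kb for the 43 genes and 17.2 kb for all genes, and the part of length in these shares was not tested.

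**Figure D1:**
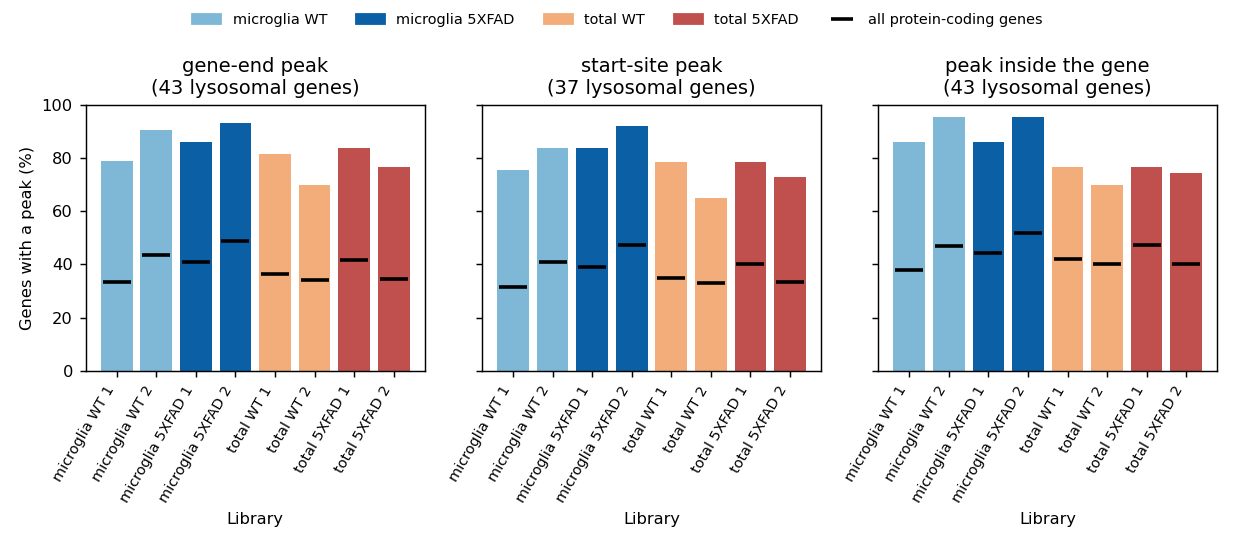
Share of genes with a listed peak (vertical axis, percent) in each of the 8 libraries (horizontal axis) for gene-end peaks, peaks within 2 kb of a start site and peaks inside the gene; bars are the lysosomal genes, coloured by group, and black dashes all protein-coding genes. Every bar stands above its dash, and for peaks inside the gene the 4 microglia bars (86.0% to 95.3%) stand above the 4 total cell bars (69.8% to 76.7%).

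Of the 43 genes, 24 (55.8%) carried a gene-end peak throughout the 8 libraries, against 17.7% of all genes, and 2 (Atp6v0b and Lamp2) had none in any library, against 41.2%. The 24 were spread over the roles: 9 genes of the pump and its accessory proteins, the membrane proteins Cd68 and Scarb2, both soluble lipid-binding proteins Npc2 and Psap, 10 of 17 hydrolases, and Tfeb. A gene-end peak was common to the 4 microglia libraries at 34 genes (79.1%, against 29.4% of all genes), and in all 4 total cell libraries at 25 (58.1%, against 22.8%). Around start sites, 19 of 37 genes had a peak in all 8 libraries (51.4%, against 17% of 17491 genes), and Atp6v0b and Lamp2 had none in any (5.41%, against 43.4%). The 4 microglia libraries shared a start-site peak at 28 genes (75.7%, against 27.9%) and the 4 total cell libraries at 21 (56.8%, against 22.2%). A peak inside the gene was present throughout at 25 of 43 (58.1%, against 22.5%), in the 4 microglia libraries at 37 (86.0%, against 34.1%) and in the 4 total cell libraries at 26 (60.5%, against 28.7%), while Atp6v0b had none (2.33%, against 37.4%). The start base of the promoter table lay under a peak in every library at 8 of 37 genes (21.6%, against 7.9%), which were Manba, Gusb, Smpd1, Hexa, Glb1, Npc2, Lipa and Atp6ap2, 6 of them hydrolases. It was covered in no library at 5 (13.5%, against 58.8%), which were Atp6v0b, Lamp1, Atp6v0a1, Arsa and Lamp2. At 7 of the 37 genes the outermost start of that table is not the annotated end of the gene: for Atp6v0a1 it lies 976 bp inside the gene, and the gene end itself was covered in all 8 libraries. Neighbouring genes limit these counts, because only 14 of the 43 have gene-end windows that overlap no window of another protein-coding gene. Of those 14, 10 had a peak in all 8 libraries, as did 12.8% of the 12615 genes with such separate windows.

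**Figure D2:**
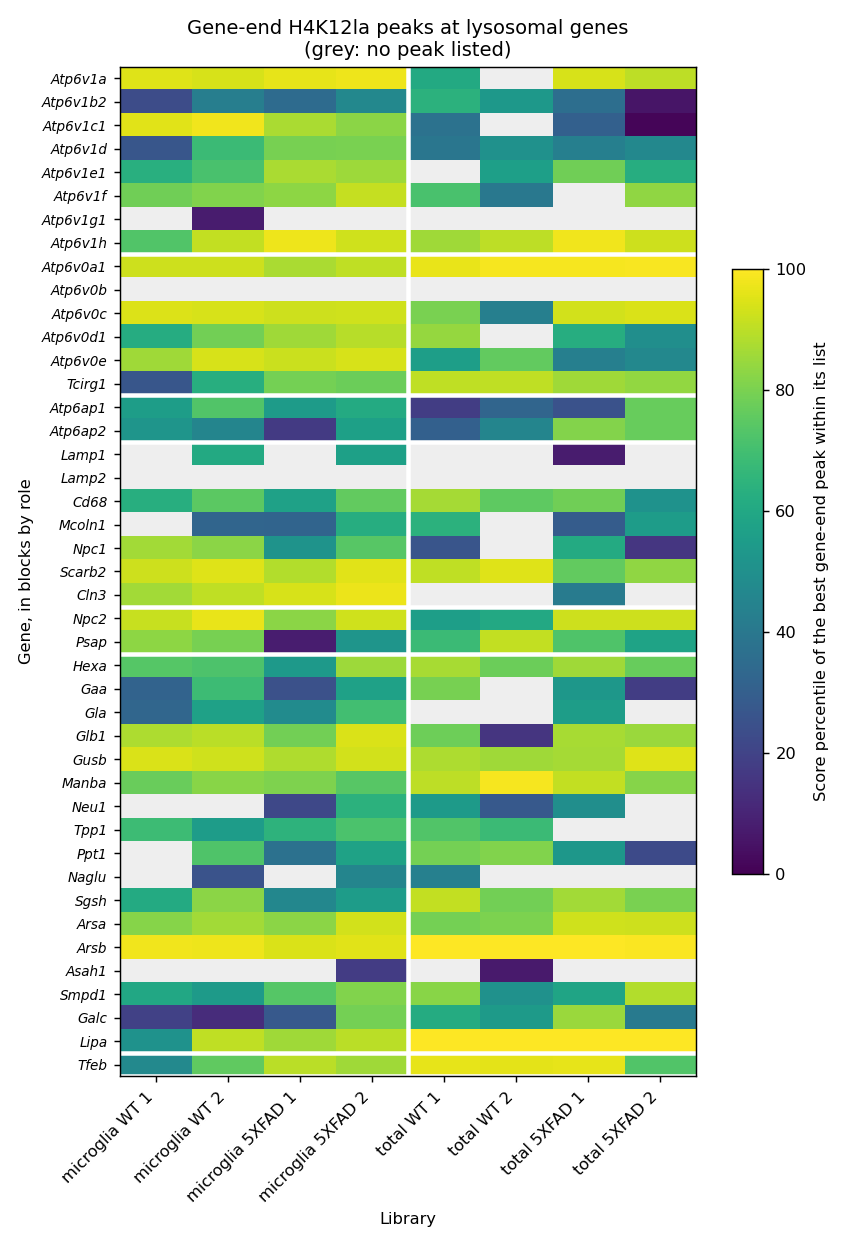
Score percentile of the best gene-end peak within its own list (colour, 0 to 100) for each of the 43 genes (rows, in blocks by role from the V1 sector at the top to Tfeb at the bottom) in each library (columns); grey means that no peak was listed. Atp6v0b and Lamp2 are grey throughout, and Arsb and Lipa are at 99.3 or above in all 4 total cell libraries.

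The strongest constant peaks, by the authors' score, belonged to Arsb, Atp6v0a1, Gusb, Atp6v1h and Scarb2. The score ranks peaks only within a list, so it was turned into a percentile of that list and shows no change between lists. Arsb encodes arylsulfatase B, which removes sulfate from dermatan and chondroitin sulfate. Its best gene-end peak was at percentiles 97.8, 97.5, 94.3 and 95.4 in microglia of WT 1, WT 2, 5XFAD 1 and 5XFAD 2 and at 99.9, 99.7, 99.8 and 99.3 in total cells of the same order. In all 4 total cell libraries that peak covered the start site of Arsb, while in microglia the start was covered in WT 2 only. Atp6v0a1, the large membrane subunit of the pump found in neurons and many other cells, was at 92.6, 92.4, 87.2 and 90.6 in microglia and 96.8, 98.8, 98.5 and 98.9 in total cells (mean 94.5 ± 4.39, SD, n = 8), and its peaks covered the annotated end of the gene on the start side in all 8 libraries. Gusb, beta-glucuronidase, was at 94.1, 92.9, 88.1 and 93.2 in microglia and 87.6, 85.7, 86.4 and 94.9 in total cells (90.4 ± 3.79, SD, n = 8). These peaks stood near the top of each list in both preparations. Atp6v1h, a regulatory V1 subunit, was at 72.7, 90.8, 97.6 and 93.0 in microglia and 85.7, 89.9, 98.0 and 92.4 in total cells (90.0 ± 8.05, SD, n = 8). Scarb2, which carries glucocerebrosidase to the lysosome, was at 92.2, 95.1, 88.3 and 95.6 in microglia and 90.5, 95.3, 76.1 and 83.4 in total cells (89.6 ± 6.85, SD, n = 8). Within each preparation all 4 libraries listed these peaks, with microglia WT 1 lowest at Atp6v1h and total cells 5XFAD 1 lowest at Scarb2. Lipa, the acid lipase that splits cholesteryl esters, came next at 89.5 ± 16.6 (SD, n = 8). Its start-site peak ranked at 99.9, 99.8, 99.9 and 99.8 within the total cell lists of WT 1, WT 2, 5XFAD 1 and 5XFAD 2 and at 50.9, 90.3, 85.9 and 89.7 within the microglia lists. It was 416 to 812 bp wide in total cells and 1097 to 1451 bp in microglia.

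Of the 8 V1 genes, 7 were marked at a gene end in the 4 microglia libraries, against 29.4% of all genes. In all 4 total cell libraries 3 were (Atp6v1b2, Atp6v1d and Atp6v1h), against 22.8%. Atp6v1a, Atp6v1c1, Atp6v1e1 and Atp6v1f were each marked in 3 total cell libraries. By peaks inside the gene the counts were 7 and 5, against 34.1% and 28.7%. Atp6v1e1 had a start-site peak in 1 microglia and 3 total cell libraries. Atp6v1a, the catalytic subunit, was at percentiles 93.9 to 97.6 in microglia and at 60.7, 94.0 and 90.1 in total cells of WT 1, 5XFAD 1 and 5XFAD 2, with no peak in WT 2. The nearest end of Naa50 lies 89 bp upstream of it. Atp6v1g1, a stalk subunit, had a peak only in microglia WT 2, at percentile 7.46. In the V0 sector, Atp6v0c, which forms the proton-carrying ring, Atp6v0e, Atp6v0a1 and Tcirg1 were marked in all 8 libraries, and Atp6v0d1 in every library but total cells WT 2. At Atp6v0c the only peak of total cells WT 2 lay past the end of the gene, towards Amdhd2, whose nearest end is 132 bp downstream. Atp6v0b, another ring subunit (gene 114143, chromosome 4, 117884330 to 117887333), had no listed peak inside the gene or within 2 kb of it in any of the 8 libraries. Both accessory proteins, Atp6ap1 and Atp6ap2, were marked in all 8.

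LAMP1 and LAMP2 are among the most abundant proteins of the lysosomal membrane. Neither gene was covered at its start in any library. Lamp1 (gene 16783, chromosome 8, 13159161 to 13175338) had gene-end peaks in microglia WT 2 and 5XFAD 2, at percentiles 60.9 and 56.7, and in total cells 5XFAD 1, at 7.76. The bases under listed peaks in Lamp1 and its 2 kb flanks were 0, 279, 0 and 633 in microglia of WT 1, WT 2, 5XFAD 1 and 5XFAD 2 and 0, 0, 215 and 0 in total cells, which overlapped. Lamp2 (gene 16784, chromosome X, 38399647 to 38456460) had no gene-end peak, but all 4 microglia libraries listed a peak inside the gene that began 16463 to 16557 bases after its start. Such covered bases at Lamp2 were 338, 1174, 532 and 1871 in microglia of WT 1, WT 2, 5XFAD 1 and 5XFAD 2 and 0 in all 4 total cell libraries. Mcoln1, a calcium channel of the lysosome, had a gene-end peak in 3 libraries of each preparation.

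Cd68 had gene-end peaks in both preparations, but only microglia had a peak over the gene itself. Cd68 (gene 12514, chromosome 11, 69664213 to 69666170) encodes a lysosomal glycoprotein of macrophages and carried a gene-end peak throughout the 8 libraries. In the 4 microglia libraries a peak crossed its start, from 119 to 218 bases before it to 316 to 1827 bases after it. The microglia libraries also had peaks reaching beyond the gene, which ended 3509 to 3867 bases after the start. In total cells the only peaks began 3312, 3312, 2985 and 3455 bases after the start in WT 1, WT 2, 5XFAD 1 and 5XFAD 2, past the end of the gene and next to Mpdu1, whose nearest end lies 1564 bp downstream of Cd68. No total cell peak overlapped Cd68 itself. Covered bases in the gene and its flanks were 2425, 3508, 2742 and 3349 in microglia and 521, 437, 764 and 376 in total cells, and the groups did not overlap.

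Calls in a single preparation depended on where a peak was counted. By gene ends, none of the 43 genes was marked in every microglia and no total cell library, against 1.5% of all genes, and none the other way, against 0.649%. Allowing 1 library of the other preparation, Cln3 and Gla were called for microglia (4.65%, against 3.59%) and none for total cells, against 1.28%. A peak inside the gene was listed in all 4 microglia and no total cell library at 4 of 43 genes (Cd68, Lamp2, Tpp1 and Gla; 9.30%, against 1.29% of all genes), and at none the other way, against 1.02%. With up to 1 total cell library allowed, Cln3 joined them (5 of 43, 11.6%, against 3.26%), and still none was called the other way, against 1.92%. The start base itself was covered in all 4 microglia and no total cell library at 3 of 37 genes (Cd68, Cln3 and Gla; 8.11%, against 1.11% of 17491 genes). The reverse was found at Psap alone (2.70%, against 0.915%). With windows of 2 kb around the start, Cd68 and Tpp1 were marked in microglia only (5.41%, against 1.42%) and Psap in total cells only (2.70%, against 0.663%). Allowing 1 library of the other preparation added Cln3 and Gla for microglia (4 of 37, 10.8%, against 3.3%) and none beside Psap for total cells (2.70%, against 1.31%). With the higher-scoring 50% of each list, peaks inside the gene called Tpp1 and Cln3 for microglia (2 of 43, against 1.20% of all genes). Cd68, Lamp2 and Gla thus lost that call and Cln3 gained it. By the start base, Cln3 alone was then called (1 of 37, against 0.772% of 17491 genes).

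Among the 17 hydrolases, Hexa, Glb1, Gusb, Manba, Sgsh, Arsa, Arsb, Smpd1, Galc and Lipa had gene-end peaks in every library. They act on different substrates: Hexa on gangliosides, Glb1 on terminal galactose, Manba on mannose linkages, Sgsh on heparan sulfate, Arsa on sulfatide and Smpd1 on sphingomyelin. Ppt1, which removes fatty acids from proteins, was marked in all libraries but microglia WT 1. Naglu, another enzyme of heparan sulfate breakdown, was marked in microglia WT 2 and 5XFAD 2 and total cells WT 1, at percentiles 25.5, 45.5 and 43.5. Asah1, acid ceramidase, had gene-end peaks in microglia 5XFAD 2 and total cells WT 2 alone, at percentiles 17.6 and 7.14, yet a peak inside the gene in all 8 libraries. The annotated gene Frg1 overlaps Asah1, and a mark on either gene cannot be told apart here. Covered bases at Asah1 were 1485, 3315, 3399 and 4809 in microglia of WT 1, WT 2, 5XFAD 1 and 5XFAD 2. In total cells they were 1546, 1573, 2066 and 1364, and the preparations overlapped. Manba overlapped as well, at 2185 to 6527 covered bases in microglia and 2110 to 4196 in total cells.

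Gla encodes alpha-galactosidase A, the enzyme deficient in Fabry disease (gene 11605, chromosome X, 134588169 to 134601005). Its covered bases were 942, 999, 1098 and 1593 in microglia of WT 1, WT 2, 5XFAD 1 and 5XFAD 2, against 0, 0, 197 and 0 in total cells, and every microglia library was above every total cell library. In microglia the peaks over the start ran from 15 to 219 bases before the start to 584 to 982 bases after it, and in total cells 5XFAD 1 the single peak ended 7 bases before the start. Both of its CACGTG copies lie 227 and 194 bases before the start, and the end of the neighbouring gene Hnrnph2 is 174 bp upstream, and a mark on either gene cannot be told apart here.

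Cln3 encodes a membrane protein of the lysosome that is lost in juvenile Batten disease (gene 12752, chromosome 7, 126571207 to 126585817). It had 1633, 1783, 1645 and 2924 covered bases in microglia of WT 1, WT 2, 5XFAD 1 and 5XFAD 2 and 0, 0, 977 and 0 in total cells. Microglial peaks covered the outermost start in every library and were at percentiles 86.3, 90.4, 93.8 and 97.1. Total cells of 5XFAD 1 had a peak from 453 to 1146 bases after the start and were the only total cell library with one. The annotated gene Apobr overlaps Cln3.

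Tpp1, the tripeptidyl peptidase lost in late infantile Batten disease (gene 12751, chromosome 7, 105744811 to 105752282), was marked at opposite ends in the preparations. All 4 microglia libraries had a peak in the first part of the gene, and it ended 1368 bases after the start in 3 of them and 1849 bases after it in 5XFAD 2. The WT total cell libraries each had a peak from 7720 to 8228 bases after the start, past the end of the gene and towards Taf10, whose nearest end is 436 bp downstream. Microglia of 5XFAD 2 had a peak there too, from 7515 to 7807 bases, and total cells of 5XFAD mice had none. Covered bases were 733, 1294, 1379 and 2220 in microglia and 509, 509, 0 and 0 in total cells.

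Psap (gene 19156, chromosome 10, 60277628 to 60302600) encodes prosaposin, the precursor of the saposins that help enzymes reach their lipid substrates. In total cells a peak crossed its start in every library, from 22 to 50 bases before it to 285 to 489 bases after it, at percentiles 68.3, 90.8, 72.6 and 58.2 in WT 1, WT 2, 5XFAD 1 and 5XFAD 2. No microglia library had a peak within 2 kb of either annotated start of Psap. All 4 microglia libraries instead had a peak at the far end of the gene, which began 25209 to 25660 bases after the start and ended 26143 to 26300 bases after it, next to Cdh23, whose nearest end lies 148 bp beyond Psap. Total cells of 5XFAD 1 had 2 short peaks there too. Covered bases overlapped between preparations, at 484, 2064, 836 and 2262 in microglia and 308, 549, 1005 and 410 in total cells.

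**Figure D3:**
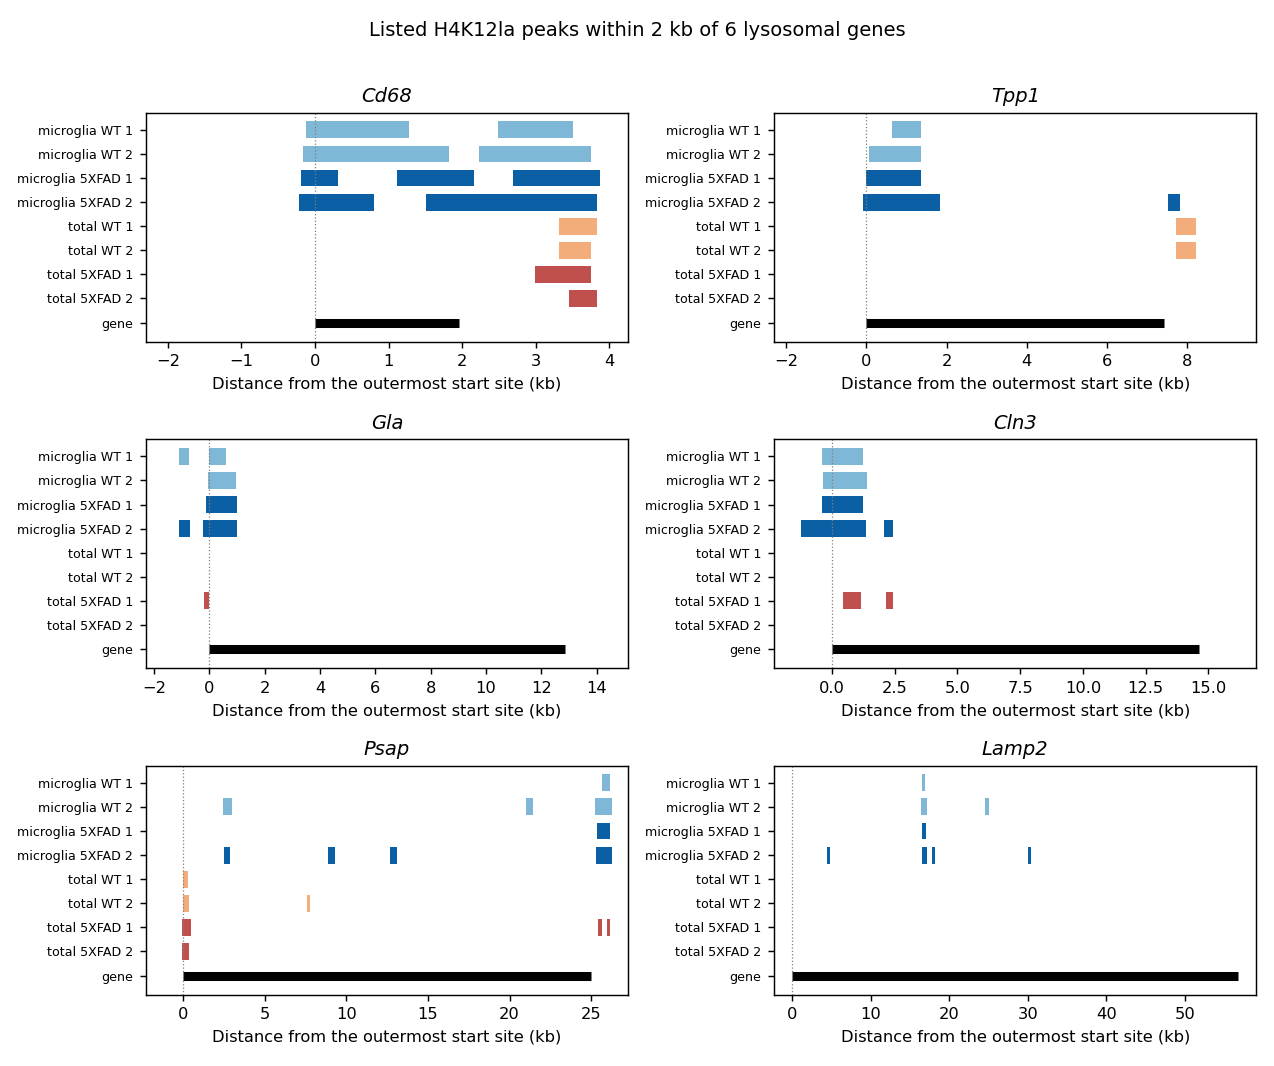
Listed peaks (bars, coloured by group) in each of the 8 libraries (rows) at Cd68, Tpp1, Gla, Cln3, Psap and Lamp2, by distance from the outermost annotated start site in kb (horizontal axis, in the direction of transcription); the black bar is the gene. Microglial peaks cross the starts of Cd68, Gla and Cln3 in 4 of 4 libraries, total cell peaks cross the start of Psap in 4 of 4, and total cell peaks near Cd68 lie beyond the end of the gene.

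Peak coverage of lysosomal genes was higher in microglia in absolute terms. Of the 42 genes with any peak, 24 (57.1%) had more covered bases in every microglia than in every total cell library, against 28% of 14441 genes tested, and none had the reverse, against 2.49%. Each of the 24 had an exact two-sided permutation p of 0.0286, the smallest that 4 libraries against 4 can give, and a Benjamini-Hochberg adjusted p of 0.0936 over all genes tested. Thus 0 genes passed 0.05 after adjustment in this test, and 4410 of all genes had an unadjusted p under 0.05. Beside Gla and Cln3, the ratios of mean covered bases were largest at Gaa, Cd68, Tpp1 and Npc2. Gaa, the alpha-glucosidase that digests glycogen, had 954, 1385, 802 and 2364 covered bases in microglia of WT 1, WT 2, 5XFAD 1 and 5XFAD 2 against 269, 0, 303 and 256 in total cells, a ratio of 6.65. Npc2, which passes cholesterol to NPC1, had 2324, 3202, 3078 and 3080 against 705, 682, 472 and 380, a ratio of 5.22. Over genes with a peak in both preparations the median ratio was 3.07 for lysosomal genes and 2.15 for all genes.

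The microglia lists also had wider peaks and a larger summed length. Per Mb covered by the whole list, 7 of 42 genes (16.7%, against 10.5% of all genes) were higher in every microglia library, namely Cln3, Cd68, Gaa, Atp6v1c1, Atp6ap2, Lamp2 and Gla, and 3 (7.14%, against 14.5%), Atp6v1h, Manba and Glb1, were higher in every total cell library. The median ratio was then 1.23 for lysosomal genes and 0.872 for all genes. Cd68 stood at 158, 134, 124 and 92.3 covered bases per Mb in microglia of WT 1, WT 2, 5XFAD 1 and 5XFAD 2, and at 54.2, 56.2, 51.8 and 43.7 in total cells. The best gene-end peaks of lysosomal genes had median widths of 891 to 1251.5 bp in microglia, above the 619 to 925 bp of all genes with such a peak in the same lists. In total cells they were 351.5 to 586.5 bp against 358 to 488 bp.

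**Figure D4:**
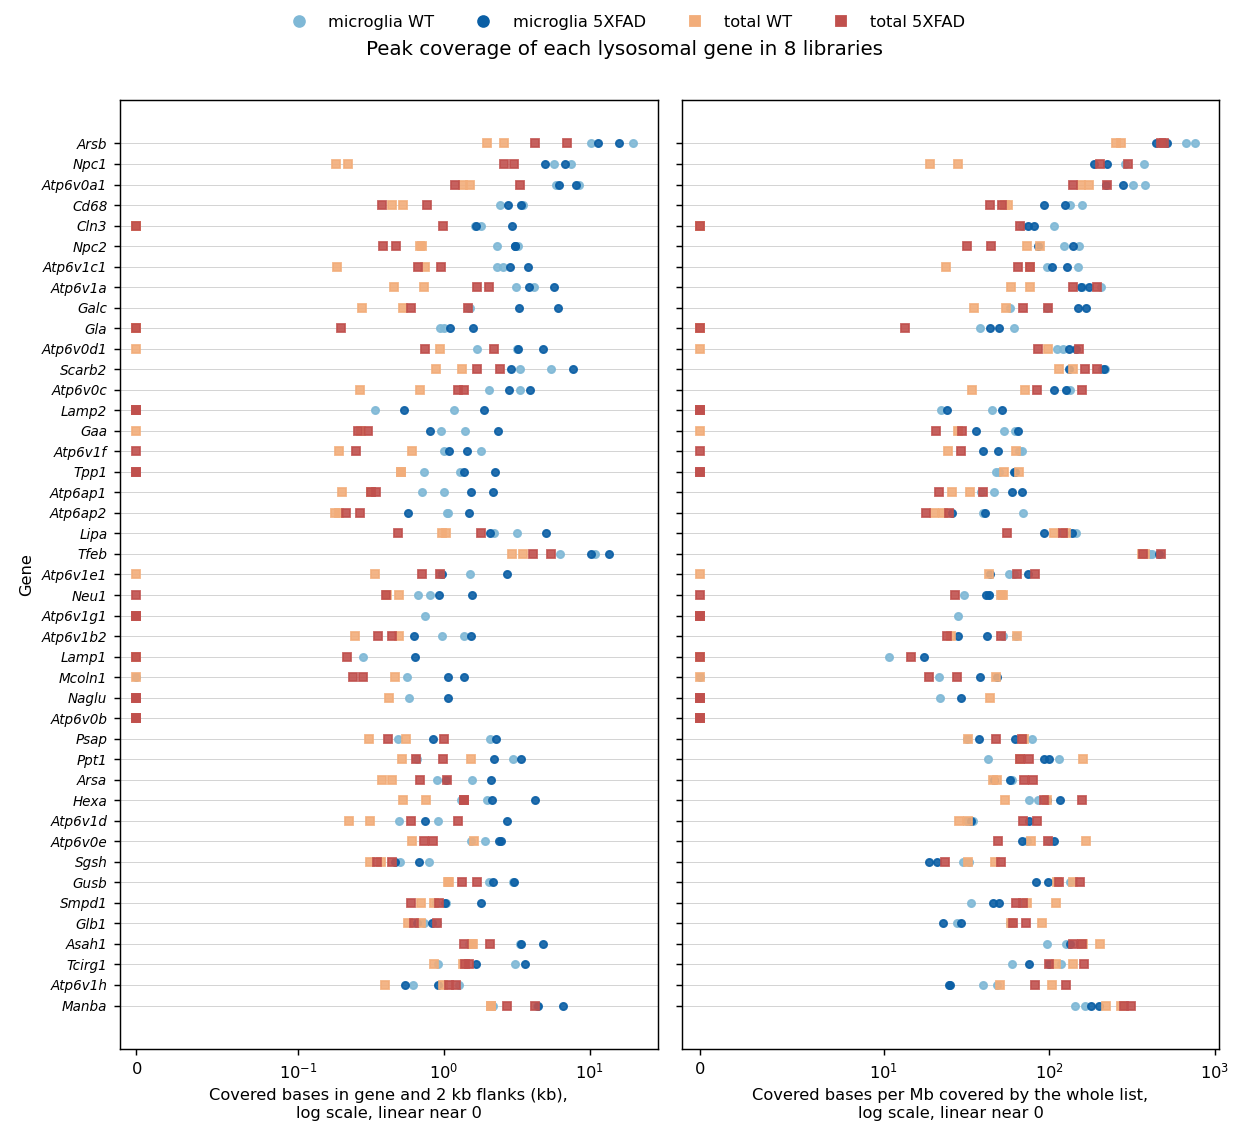
Bases covered by peaks in each gene and its 2 kb flanks (left, kb) and the same per Mb covered by the whole list (right), both on log axes that are linear near 0, for each of the 43 genes (rows, ordered by the difference on the right) with 1 point per library. On the left 24 genes have all microglia circles to the right of all total cell squares, and on the right 7 do.

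Few lysosomal genes divided the genotypes by presence of a peak. In microglia, Neu1 alone was marked at a gene end in both 5XFAD libraries and neither WT library (2.33%, against 3.19% of all genes), and no gene had the opposite pattern, against 0.58%. In total cells none was marked in both 5XFAD and no WT library, against 3.1%, and Tpp1 alone in both WT and no 5XFAD library (2.33%, against 1.64%). Without total cells WT 1 the 5XFAD-only count there rose from 0 to 6. The rule then asked for absence from WT 2 alone, which is looser for every gene, and the share of all genes under it is not given here. Around start sites, Mcoln1 and Neu1 were marked in both 5XFAD and no WT microglia library (5.41%, against 3.25%) and none the other way, against 0.537%. Total cells had none in either direction, against 2.87% and 1.48%. No peak inside a gene followed the genotype in either preparation, against 3% and 0.589% of all genes in microglia and 2.88% and 1.58% in total cells for 5XFAD and WT. With 2 libraries against 2, no permutation test can give a p under 0.333.

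Neu1 encodes sialidase 1, which trims sialic acid from glycoproteins (gene 18010, chromosome 17, 34931253 to 34937297). A peak crossed its start in both 5XFAD microglia libraries, and in WT microglia the only peaks began 2836 and 2862 bases after the start. Total cells of WT 1, WT 2 and 5XFAD 1 had a start-site peak of 489, 406 and 399 bp, and 5XFAD 2 had none. Start bases were covered in both 5XFAD and no WT microglia library at 4 of 37 genes (Neu1, Tpp1, Tcirg1 and Tfeb; 10.8%, against 2.7%), and in no case the other way, against 1.12%. Among these, Tcirg1 is the pump subunit of osteoclasts and macrophages. Its call turned on peak edges: the 5XFAD 1 peak ended 15 bases after the outermost start, and the WT 2 peak ended 11 bases before it. In WT 1 the nearest peak ended 482 bases before it, and all 4 microglia libraries had a start-site peak at Tcirg1. At Tfeb the covered start was 1 of 3 annotated ones, and the gene had a peak at an end in every library, at percentiles 46.9, 75.7, 89.7 and 85.6 in microglia of WT 1, WT 2, 5XFAD 1 and 5XFAD 2 and 96.2, 96.0, 96.2 and 72.8 in total cells. Its covered bases were 6202, 10895, 10115 and 13481 in microglia and 3492, 2938, 5436 and 4081 in total cells, and the preparations did not overlap. Per Mb of list they did, at 372 to 458 in microglia and 363 to 474 in total cells. In total cells the start base was covered in both 5XFAD and no WT library at Atp6v1a, Atp6v1d and Galc (8.11%, against 2.49%) and the other way at Atp6v0e (2.70%, against 1.27%). At Atp6v1a the 5XFAD total cell peaks began 16 and 55 bases before the start, the nearest peak in WT 1 ended 1168 bases before it and in WT 2 began 8601 bases after it. At Atp6v1d, a stalk subunit, the WT peaks ended 47 and 205 bases before the start, and at Galc, the enzyme that splits galactosylceramide of myelin, they began 68 and 144 bases after it. The 5XFAD peaks of Atp6v0e began 34 and 29 bases after the start. Apart from Atp6v1a, these total cell calls thus turned on peak edges that lay within 205 bases of the start. The table starts of Atp6v1a and Atp6v1d lie 443 and 370 bp inside the annotated genes, and at the gene ends neither call held: that of Atp6v1a was covered in no total cell library and that of Atp6v1d in WT 2 and 5XFAD 1. The gene end of Tpp1, 47 bp outside its table start, was covered in microglia 5XFAD 2 alone.

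Npc1, the membrane transporter that moves cholesterol out of the lysosome (gene 18145, chromosome 18, 12189694 to 12236506), differed between total cells of the genotypes. Its covered bases were 183 and 219 in total cells of WT mice and 2999 and 2577 in those of 5XFAD mice. Microglia had 5699 and 7478 in WT and 4937 and 6717 in 5XFAD mice, above all total cells. Per Mb of list, total cells of 5XFAD mice (203 and 299) were also above those of WT mice (19.0 and 28.1) and overlapped microglia (185 to 372). The annotated gene Rmc1 overlaps Npc1, and a mark on either gene cannot be told apart here. Npc1 was singled out after its values were seen. In total cells both 5XFAD libraries had more covered bases than both WT libraries at 16 of 42 genes (38.1%, against 25.1% of all genes), and per Mb at 10 (23.8%, against 16.9%), while the WT libraries were higher at Tpp1, Npc2 and Neu1 (7.14%, against 8.55%), and per Mb at 6 (14.3%, against 18.2%). In microglia the 5XFAD libraries were higher at 12 (28.6%, against 28.9%), and per Mb at 8 (19.0%, against 19.5%), while WT libraries were higher at none, against 2.7%, and per Mb at 11 (26.2%, against 16.6%).

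Lists of other genes of the pathway were described in the same way. Of 30 further lysosomal genes, 12 carried a gene-end peak throughout the 8 libraries (17.7% of all genes did), among them Gm2a and Cd63, and Lamp3, Igf2r and Plbd2 had none. In all, 14 were marked at a gene end in all 4 microglia and 15 in all 4 total cell libraries, against 29.4% and 22.8% of all genes. By gene ends, none was marked in every library of 1 preparation and no library of the other. By peaks inside the gene, Plbd2 was listed in all 4 total cell and no microglia library (1 of 30, against 1.02% of all genes). Of 9 further pump isoforms, most of them limited to kidney, testis or other tissues, only Atp6v0e2 was marked at a gene end throughout. Atp6v1b1 and Atp6v1c2 were marked there in no library, and Atp6v1b1 alone had no peak inside the gene either. Among 16 genes of lysosome signalling and the TFEB family, 6 were marked at a gene end throughout (Mtor, Rptor, Lamtor2, Lamtor3, Rraga and Flcn). Tfec and Slc38a9 were marked there in no library. By peaks inside the gene, 8 of the 16 were marked throughout, Slc38a9 among them, and Tfec alone in no library. Tfe3, a relative of TFEB, and the scaffold subunits Lamtor4 and Lamtor5 were marked at a gene end in both 5XFAD total cell libraries and neither WT one, a pattern held by 3.1% of all genes. Rragd, a GTPase that recruits TFEB, was marked in the same way in microglia, where 3.19% of all genes were.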

How the data were processed

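H4K12la CUT&Tag peaks of 8 libraries were analysed, in 4 groups of 2 named by the sample titles. The submitters' processing notes name fastp 0.19.6, Bowtie2, deepTools and build GRCm38 (mm10). How peaks were called, and with what cutoff or control, is not given in the sources used here. For each library the authors deposited 1 peak list, with a whole-number score per peak of at least 20, whose unit is not stated and which served only to rank or filter peaks within a list. Peaks lie on chromosomes 1 to 19, X and Y, apart from 219 that were left out. Starts were taken as counted from 0 and printed from 1.

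Gene ends came from RefSeq GRCm38.p6, and start sites and strand from its promoter table (37 of 43 lysosomal genes, 17491 of all). The minimum overlap of a peak with a window was 1 base. Differences in presence were counts of patterns without a test. Covered bases were tested per gene by an exact two-sided permutation over 70 assignments, with Benjamini-Hochberg adjustment over 14441 genes and a threshold of 0.05 (Python 3.11.15, numpy 2.4.6, pandas 2.3.3). The code was tested on simulated data.

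The genes and lists were chosen with earlier results of these data known. All 43 genes are accounted for. Values per library are given for genes called in 1 preparation or genotype, genes with no gene-end peak, the 5 with the highest mean percentile among those present in all 8 libraries, the 6 largest coverage ratios, and Cd68, Tfeb, Lamp1 and Lamp2; Lipa and Npc1 were added after their values were seen. No library shared more than 192 exact intervals with another. Alternatives changed the window, the peaks used, the scaling and the libraries left out; those for start sites, start bases and peaks inside genes were chosen after seeing the data.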

Additional observations from a re-analysis of the deposited data

Results flagged for a closer look

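At 2 lysosomal genes the genotypes differed in opposite directions in the 2 preparations in bases covered by peaks. At Neu1 the 5XFAD minus WT difference of means was 513.5 bases in microglia (663 and 798 in WT, 921 and 1567 in 5XFAD) and -248 in total cells (489 and 406 in WT, 399 and 0 in 5XFAD). At Tpp1 it was 786 in microglia (733 and 1294 in WT, 1379 and 2220 in 5XFAD) and -509 in total cells (509 and 509 in WT, 0 and 0 in 5XFAD). The total cell bases of Tpp1 all lay past the end of the gene, whereas every microglia library had a peak in its first part. The difference between the preparations was not tested. The same pattern was found at 289 of the 14441 genes with any peak, and the mirror pattern at 79 of them. Per Mb covered by the list, Tpp1 kept the pattern and Neu1 did not, since its microglia libraries overlapped (43.3 and 30.6 in WT, 41.7 and 43.2 in 5XFAD). On that scale Asah1 showed it too, Arsb, Arsa, Atp6v0c and Npc1 showed the mirror pattern, and 472 and 529 of all genes did so.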

How the results depend on the processing

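Depth is unknown. Some contrasts between directions turned. In total cells, 5XFAD-only and WT-only genes numbered 0 and 1, but 6 and 2 without total cells WT 1 and 3 and 2 without 5XFAD 2. Leaving out a library loosens such rules for every gene, and the shares of all genes under them are not given here. In microglia, 12 genes were higher in 5XFAD and 0 in WT by covered bases, but 8 and 11 per Mb of list. Per Mb of list 3 genes were higher in every total cell library, against 0 without that scaling. Gene-end peaks throughout the 8 libraries remained at 12 lysosomal genes in the higher-scoring 50% of each list. With scores of 50 or more the count was 15. Cutting a list by score can only lower this count, for any set of genes. The shares of all genes under these cuts are not given here. The fall from 24 is therefore not shown to be particular to lysosomal genes. Where windows overlap no other, 10 of the 14 remaining genes had such a peak, against 12.8% of 12615 genes. Leaving out 1 library gave 24 to 29. Most counts below for a single preparation or genotype also lack the share of all genes. Microglia-only gene-end peaks were found at 1 gene with windows of 1 kb, 1 with the gene body plus 2 kb, 2 around the start site, 2 with the higher-scoring 50%, 2 with a score of at least 50, and 0 to 2 with 1 library left out (2 without total cells 5XFAD 1). Total-cell-only peaks were found at 1 gene around the start site. The excess of lysosomal over all genes, microglia minus total cells, was 4.44 points, and 8.91 with 1 kb, 8.79 with the gene body plus 2 kb, 11.99 with the higher-scoring 50%, 9.75 with a score of at least 50, 1.07 among genes with separate windows, and 2.58 to 5.71 with 1 library left out.

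For 5XFAD-only genes in microglia the count was 2 with 1 kb, 0 with 5 kb, 0 with the gene body plus 2 kb, 2 around the start site, 0 with the higher-scoring 50%, 0 among genes with separate windows, and 1 to 3 with 1 library left out (3 without microglia WT 2, 2 without microglia 5XFAD 1). WT-only genes in microglia numbered 0 to 1 with 1 library left out. In total cells 5XFAD-only genes numbered 1 with 1 kb, 1 with the higher-scoring 50%, 1 with a score of at least 50, and 0 to 6 with 1 library left out (6 without total cells WT 1, 1 without WT 2, 3 without 5XFAD 2). WT-only genes there numbered 0 around the start site, 3 with the higher-scoring 50%, 2 with a score of at least 50, 0 among genes with separate windows, and 2 whichever total cell library was left out.

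Microglia-only peaks inside the gene numbered 2 (Tpp1 and Cln3) with the higher-scoring 50% and fell to 1 (Lamp2) among genes with separate windows, with 4 to 5 when 1 library was left out; total-cell-only ones rose to 1 with the higher-scoring 50% and to 1 with equal numbers of peaks. Microglia-only start-site peaks were 0 among genes with separate windows and 2 to 4 with 1 library left out (4 without total cells 5XFAD 1), and total-cell-only ones 0 among genes with separate windows. Microglia-only start bases numbered 1 (Cln3) with the higher-scoring 50% and 0 among genes with separate windows, and total-cell-only ones 0 among the latter and 1 to 2 with 1 library left out (2 without microglia WT 2 or 5XFAD 2). The count of genes with more covered bases in every microglia library was 24, and 7 per Mb of list, 4 by number of peaks (6.52% of all genes), and 24 to 33 with 1 library left out. With libraries paired by genotype and replicate number, as a replicate block, 29 genes were higher in microglia in every pair, as were 37.7% of all genes, where the smallest sign flip p is 0.125; correlations of same-numbered libraries between groups ran from -0.0655 to 0.17. The cause of each shift was not tested, apart from the smaller gene set where windows are separate.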
